A study of Mus musculus with 12 samples.

Results

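Retinoid storage, transport and clearance in the liver was followed through 9 genes, Rbp4, Lrat, Rdh11, Rdh13, Rdh16, Dhrs3, Aldh1a1, Cyp26a1 and Rarb, which were picked by symbol from the 16821 genes listed in the files. Liver RNA came from 12 adult male C57BL/6J mice, bought at 8 weeks of age, with 6 mice in the sedentary control (Con) group and 6 in the chronic exercise (Exe) group. Treadmill running of moderate intensity filled 6 weeks for the Exe mice, on 5 days of each week and for 60 min a day, while Con mice were kept beside them with no treadmill. Both groups had free access to food and water, and their perfused livers were collected within 24 h of the last run. The labels and methods give no transgene or drug, and each mouse gave 1 library.

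Vitamin A circulates as retinol bound to a carrier protein that hepatocytes secrete, and the liver keeps the body's main reserve as retinyl esters in stellate cells, the fat-storing cells that lie beside the hepatocyte cords. Retinol is oxidised reversibly to retinal and then irreversibly to retinoic acid, which binds nuclear receptors that switch target genes on. Retinoic acid is removed by enzymes of the Cyp26 family, whose own transcription rises with retinoic acid, so that the route from store to signal closes on itself.

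Values were FPKM, fragments scaled to transcript length and to the mapped fragments of the library, a scale on which levels of different genes can be compared per length. Log2 differences below are Exe minus Con on log2(FPKM + 1), which understates the change of low genes, and they carry a standard error (SE) and a 95% interval from limma. The sums of FPKM per mouse lay between 735200 and 820107, on a scale already divided by depth. The relative depth estimated from 22 low genes lay between 0.981 and 1.02. Only genes whose values stepped by nearly the same unit in all mice were used, so that the estimate could not show a large difference. The depth in reads is unknown. All 9 hepatocyte markers in the files were at a mean of at least 1 FPKM. Their sum had a median of 56790 FPKM in Con and 67670 in Exe, with 4 Exe mice above the highest Con mouse at 64380. The median sum of the bile duct markers was 65.91 FPKM in Con and 35.55 in Exe, and that of the red blood cell markers 415.4 and 707.5, and the part of these marker levels in the differences of Rdh11 and Rbp4 below was not tested. The 5 adipose markers in the files summed to 0.47 to 1.05 FPKM per mouse, and the 2 kidney markers to at most 0.06 FPKM.

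Rbp4 was by far the most abundant of the 9 genes and Rarb the least. The mean over 12 mice was 4038 FPKM for Rbp4, 552.2 for Aldh1a1 and 64.41 for Dhrs3, and the ranges of these 3 overlapped neither each other nor the next gene. Rdh11 followed at 26.47 FPKM, Rdh16 at 22.4 and Cyp26a1 at 15.86, with overlapping ranges. The Cyp26a1 value of Exe 2, 57.86 FPKM, lay inside the range of Dhrs3, 54.06 to 84.36 FPKM. Rdh11 was above Rdh16 in 10 of 12 mice, and Rdh16 above Cyp26a1 in 9. Rdh13 at 2.904 FPKM, Lrat at 2.225 and Rarb at 1.034 closed the order, again with ranges that overlapped from one to the next. Cyp26a1 was above Rdh13 in 12 of 12 mice, Rdh13 above Lrat in 10, and Lrat above Rarb in 12.

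**Figure D1:**
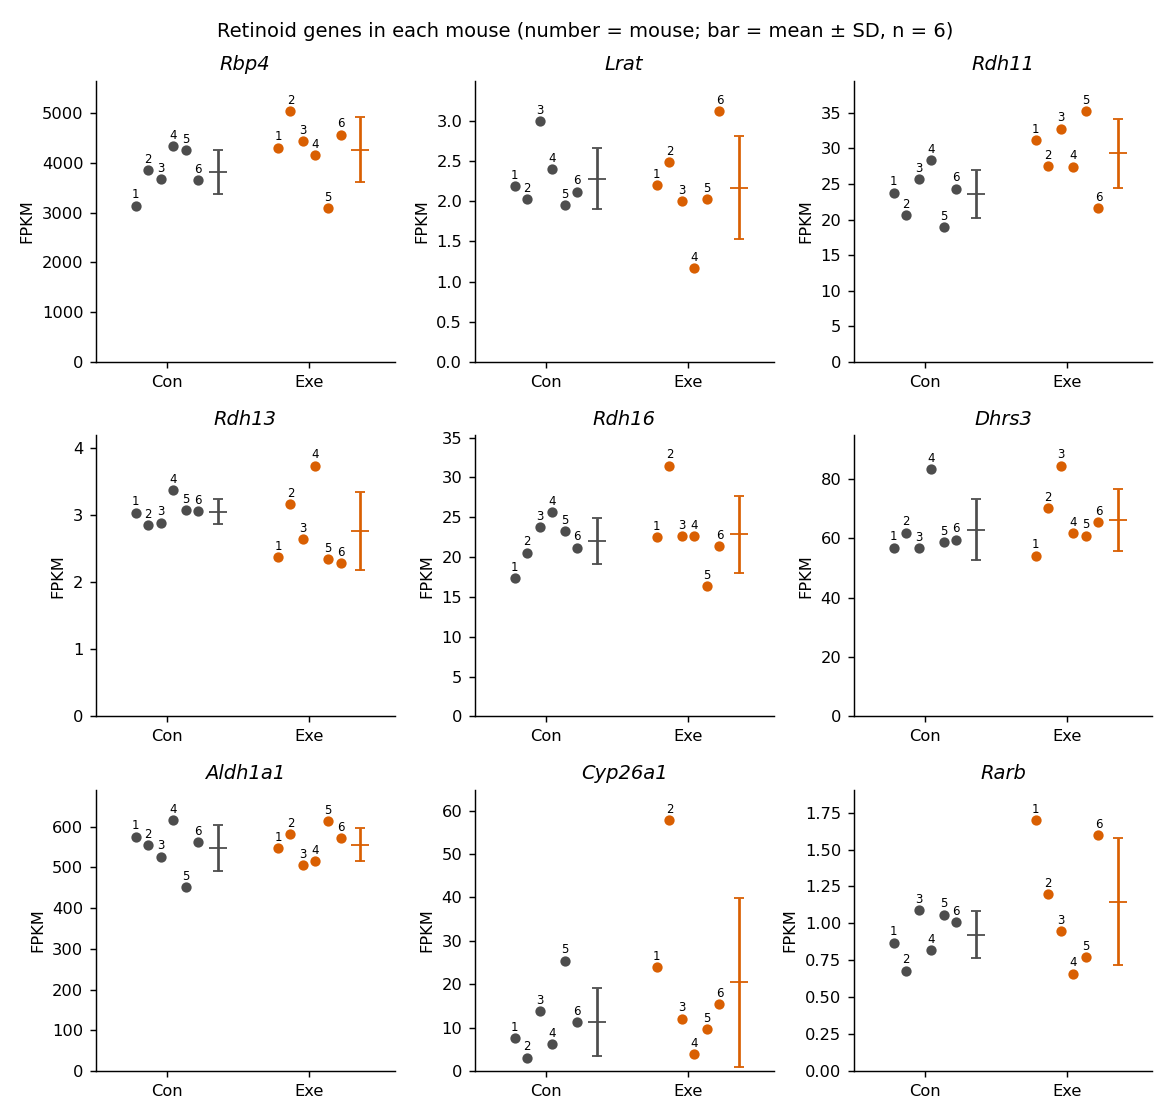
FPKM of the 9 retinoid genes, one panel per gene on a linear axis from 0, with 1 numbered point per mouse (grey Con, orange Exe) and the mean ± SD of 6 mice beside each group. The groups overlap in every panel, and Cyp26a1 has the widest spread, from 3.09 FPKM in Con 2 to 57.86 in Exe 2.

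The question asked of each gene was whether chronic exercise changed its transcript level in the liver. At an adjusted p of 0.05 (limma, Benjamini-Hochberg over all genes tested), 0 of 10241 genes (0%) and 0 of the 9 retinoid genes were called. At an unadjusted p of 0.05, 437 of the genes tested (4.27%) were higher in Exe and 199 (1.94%) were lower. With 1 mouse left out, the higher count ran from 252 (without Exe 2) to 593 (without Con 4). The lower count ran from 148 (without Con 3) to 363 (without Exe 5). Of the 9 retinoid genes, 1 was among the higher ones, Rdh11, and 0 among the lower. After quantile normalization the split over all genes was 351 higher and 267 lower, 56.8% higher against 68.7% before. The 6 values of Con and Exe did not overlap in 26 genes (0.254%), and 0 of these was among the 9.

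The panels by mouse show how the 9 genes lay within and between groups, and the plot of log2 differences shows the size of each difference with its interval. The 9 differences ran from -0.12 for Rdh13 to 0.63 for Cyp26a1, 7 above 0 and 2 below, with a median of 0.07 beside 0.02 over all genes tested. A positive difference was found in 5892 of the 10241 genes.

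**Figure D2:**
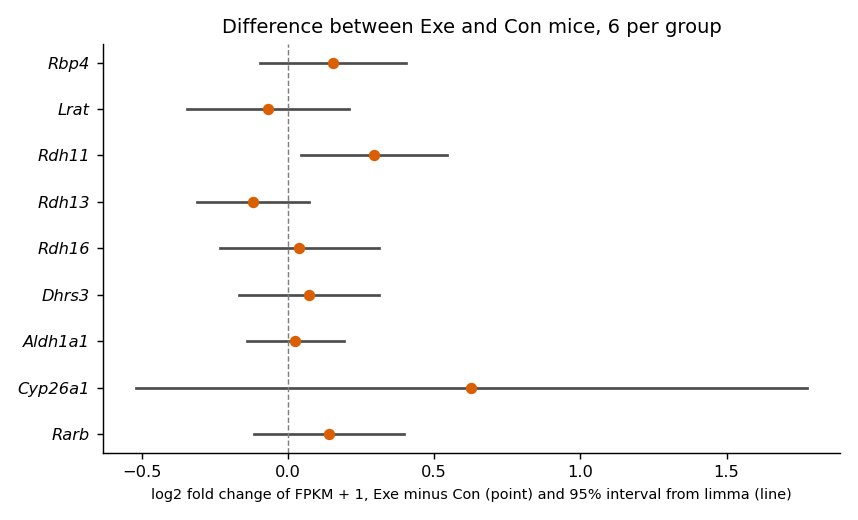
Difference between Exe and Con in mean log2(FPKM + 1) for each of the 9 genes, as a point with its 95% interval from limma (6 mice per group). The interval of Rdh11, from 0.04 to 0.54, is the only one that does not include 0, and that of Cyp26a1 is the widest.

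Rbp4 (NCBI gene 19662) encodes the plasma carrier of retinol. It ranged in Con from 3137.41 FPKM (Con 1) through a median of 3758.6 to 4332.48 (Con 4), and in Exe from 3090.58 (Exe 5) through 4370.8 to 5034.59 (Exe 2). Of the Exe mice, 3 lay above every Con mouse and 1, Exe 5, below every Con mouse. The mean was 3815 ± 441 FPKM in Con and 4262 ± 649 in Exe (SD, n = 6), a log2 difference of 0.15 (SE 0.12, 95% interval -0.10 to 0.40, adjusted p = 0.921 by limma), and the exact two-sided permutation test gave p = 0.247. Without Exe 5 the difference was 0.24 with an unadjusted p of 0.0212 and an adjusted p of 0.534 (limma), and it was 0.10 both without Con 1 and without Exe 2. After quantile normalization it was 0.26 (adjusted p = 0.904, limma). Its mean exceeded that of 99.7% of the genes tested. Ttr, which encodes the protein that carries the Rbp4 complex in plasma, was higher still, at 8408 ± 1210 FPKM in Con and 8435 ± 1000 in Exe (adjusted p = 0.997, limma). The 3 genes whose rank order over the 12 mice was most like that of Rbp4 were Dapk1 (Spearman rho 0.972), Vkorc1 (0.965) and Apoe (0.937).

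Lrat (79235) encodes the acyltransferase that makes retinyl esters, in the liver mainly in stellate cells. It ranged in Con from 1.95 FPKM (Con 5) through a median of 2.155 to 3 (Con 3), and in Exe from 1.17 (Exe 4) through 2.115 to 3.12 (Exe 6). Exe held both the lowest and the highest mouse, and the groups overlapped in the rest. The mean was 2.28 ± 0.38 FPKM in Con and 2.17 ± 0.64 in Exe (SD, n = 6), a log2 difference of -0.07 (SE 0.13, 95% interval -0.35 to 0.21, adjusted p = 0.961 by limma; exact permutation p = 0.677). Without Exe 4 the difference was above 0, at 0.035. The 14 stellate cell markers, 12 of them at a mean of at least 1 FPKM and none at 0 in all mice, summed to 112.1 to 219.6 FPKM in Con and 105.1 to 197.6 in Exe. Exe 4 had a stellate sum of 164.4, inside the range of the others, and Lrat did not follow the marker level closely from mouse to mouse (rho 0.375, permutation p = 0.226, adjusted p = 0.566). In whole liver, fewer cells of a type and less RNA per cell cannot be told apart. The genes most like Lrat in rank over the 12 mice were Cmah (rho 0.89), Pard3 (0.883) and Flot2 (0.865).

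Of the enzymes between retinol and retinal, Rdh11 (17252), a microsomal enzyme that in cells works mainly as a retinal reductase, had the largest log2 difference among these 9 genes after Cyp26a1. Its Con values ran from 19.00 FPKM (Con 5) through a median of 24.075 to 28.33 (Con 4), and in Exe from 21.61 (Exe 6) through 29.375 to 35.25 (Exe 5). Of the Exe mice, 3 lay above every Con mouse, none lay below them all, and Exe 6 lay below the Con median. The mean was 23.6 ± 3.4 FPKM in Con and 29.3 ± 4.8 in Exe (SD, n = 6), a ratio of means of 1.24, which was also that of Rarb. The log2 difference was 0.29 (SE 0.12, 95% interval 0.04 to 0.54), with an unadjusted p of 0.0243 and an adjusted p of 0.793 (limma), and the exact permutation test gave p = 0.0498. The unadjusted p of limma was 0.0541 without Con 2, 0.0599 without Con 5, 0.0543 without Exe 3 and 0.0585 without Exe 5, and it was 0.00273 without Exe 6.

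Dhrs3 (20148) encodes another retinal reductase, which returns retinal to retinol. It ranged in Con from 56.61 FPKM (Con 3) through a median of 59.095 to 83.26 (Con 4), and in Exe from 54.06 (Exe 1) through 63.435 to 84.36 (Exe 3). In Con, 5 mice lay between 56.61 and 61.79 FPKM and Con 4 lay apart from them. The mean was 62.8 ± 10.2 FPKM in Con and 66.0 ± 10.4 in Exe (SD, n = 6), a log2 difference of 0.07 (SE 0.11, 95% interval -0.17 to 0.31, adjusted p = 0.958 by limma; exact permutation p = 0.554). Without Con 4 the difference was 0.155, and without Exe 3 it was -0.001.

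Rdh13 (108841) encodes a mitochondrial enzyme of the same dehydrogenase superfamily that reduces retinal. The Con mice spanned a narrow range, from 2.85 FPKM (Con 2) through a median of 3.05 to 3.38 (Con 4), and in Exe from 2.29 (Exe 6) through 2.505 to 3.74 (Exe 4). Of the Exe mice, 4 lay below every Con mouse and Exe 4 lay above every Con mouse. The mean was 3.05 ± 0.19 FPKM in Con and 2.76 ± 0.58 in Exe (SD, n = 6), a log2 difference of -0.12 (SE 0.09, 95% interval -0.31 to 0.07, adjusted p = 0.914 by limma; exact permutation p = 0.221). Without Exe 4 the difference was -0.19, with an unadjusted p of 0.0198 and an adjusted p of 0.687 (limma).

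Rdh16 (19683) encodes a microsomal dehydrogenase that oxidises retinol. It ranged in Con from 17.39 FPKM (Con 1) through a median of 22.245 to 25.62 (Con 4), and in Exe from 16.35 (Exe 5) through 22.585 to 31.48 (Exe 2). Exe held the lowest and the highest mouse. The mean was 21.975 ± 2.894 FPKM in Con and 22.835 ± 4.882 in Exe (SD, n = 6), a log2 difference of 0.04 (SE 0.13, 95% interval -0.23 to 0.31, adjusted p = 0.978 by limma; exact permutation p = 0.814). The difference was below 0 without Con 1 (-0.024) and without Exe 2 (-0.055), and it was 0.126 without Exe 5. Rdh16 has close copies, so that reads may have been split among them, and its values carry that uncertainty. Of the copies, Rdh7 was at 902.6 ± 85.7 FPKM in Con and 922.5 ± 65.0 in Exe (adjusted p = 0.966, limma), and Rdh16f2 at 110.6 ± 7.2 and 128.0 ± 22.3 (adjusted p = 0.847). Rdh9 was at 29.81 ± 6.34 FPKM in Con and 24.86 ± 4.66 in Exe (adjusted p = 0.881, limma), while Rdh1 and Rdh19, with means of 0.123 and 0.00917 FPKM over 12 mice, were under the filter.

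Aldh1a1 (11668) encodes a retinal dehydrogenase, which makes retinoic acid. It was the steadiest of the 9 genes. Levels in Con went from 451.44 FPKM (Con 5) through a median of 558.75 to 616.54 (Con 4), and in Exe from 506.38 (Exe 3) through 560.5 to 613.22 (Exe 5). Every Exe mouse lay inside the range of Con. The mean was 548.0 ± 55.7 FPKM in Con and 556.3 ± 41.0 in Exe (SD, n = 6), a log2 difference of 0.025 (SE 0.08, 95% interval -0.14 to 0.19, adjusted p = 0.977 by limma; exact permutation p = 0.762), and it turned to -0.038 after quantile normalization, -0.030 without Con 5 and -0.004 without Exe 5. The coefficient of variation within groups was 8.85%, and 28.3% of the genes tested had a lower one. Aldh1a7, a near copy with which reads may be shared, was at 137.5 ± 18.1 FPKM in Con and 146.3 ± 23.4 in Exe (adjusted p = 0.947, limma).

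Cyp26a1 (13082), the hydroxylase that clears retinoic acid and itself a target of retinoic acid, varied more between mice than nearly any other gene. Levels in Con went from 3.09 FPKM (Con 2) through a median of 9.46 to 25.45 (Con 5), and in Exe from 3.94 (Exe 4) through 13.725 to 57.86 (Exe 2). The highest mouse was 18.7 times the lowest, and Exe 2 was the only Exe mouse above every Con mouse. The coefficient of variation within groups was 93.7%, and 99.8% of the genes tested had a lower one. The mean was 11.2 ± 7.9 FPKM in Con and 20.5 ± 19.5 in Exe (SD, n = 6), a ratio of 1.82. The log2 difference was 0.63 (SE 0.53, 95% interval -0.52 to 1.775, adjusted p = 0.929 by limma), and the exact permutation test gave p = 0.342. Leaving out Exe 2 gave 0.25, leaving out Con 2 gave 0.36 and leaving out Exe 4 gave 0.97, none past an unadjusted p of 0.05 (limma). With an interval this wide, neither a lower nor a clearly higher level in Exe was told apart from none.

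Rarb (218772) encodes retinoic acid receptor beta, a receptor whose gene is a classical target of retinoic acid. It ranged in Con from 0.68 FPKM (Con 2) through a median of 0.94 to 1.09 (Con 3), and in Exe from 0.66 (Exe 4) through 1.075 to 1.70 (Exe 1). Of the Exe mice, 3 lay above every Con mouse (Exe 1, Exe 2 and Exe 6) and Exe 4 lay below every one. The mean was 0.92 ± 0.16 FPKM in Con and 1.15 ± 0.43 in Exe (SD, n = 6), a log2 difference of 0.14 (SE 0.12, 95% interval -0.12 to 0.395, adjusted p = 0.929 by limma; exact permutation p = 0.305). Without Exe 1 the difference was 0.07 and without Exe 6 it was 0.08, and with a pseudocount of 0.1 it was 0.23. The gene passed the filter with exactly 6 mice at or above 1 FPKM, 3 in each group, and only 0.83% of the genes tested had a lower mean.

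The promoters of the 2 retinoic acid targets are shown because both hold the same kind of repeat just before the start of transcription. The receptors of retinoic acid bind pairs of a 6-letter unit in the same direction, classically spaced by 5 letters. The unit was taken as AGGTCA or with its letters changed to AGTTCA, to GGGTCA or to GGTTCA, and any pair of these spaced by 5 was searched on both strands, from 250 bases before to 50 after each start in RefSeq (GRCm38.p6). The stretches below end at the base before the start and read 5′ to 3′ on the strand of the gene, with the repeat units in capitals. The stretch of Rarb lies at chr14:16575477-16575596 on the minus strand and that of Cyp26a1 at chr19:37697688-37697807 on the plus strand.
Rarb: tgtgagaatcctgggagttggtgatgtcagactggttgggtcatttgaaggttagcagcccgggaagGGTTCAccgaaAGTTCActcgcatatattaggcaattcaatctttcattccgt
Cyp26a1: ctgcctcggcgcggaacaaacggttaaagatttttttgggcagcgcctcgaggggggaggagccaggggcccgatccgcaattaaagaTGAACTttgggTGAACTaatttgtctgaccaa

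In Rarb the repeat read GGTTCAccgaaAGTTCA on the strand of the gene, from base -53 to base -37 counted from the start. In Cyp26a1 it lay on the opposite strand, where it read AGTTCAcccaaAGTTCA, from base -32 to base -16. Such a repeat stood in 32 of 32851 windows (0.0974%), belonging to 31 of 27025 genes (0.115%). Of the 9 genes, 8 had a window in the table and these 2 held a match, and Rdh13 had none listed. The repeat was searched after the promoters had been read, so that these 2 matches are no test against that share. Of the 62 other retinoid genes described below, 50 had a window and 0 held a match. With the units spaced by 2, 88 windows (0.268%) and 0 of the 8 genes held a match. A match of letters is a description and shows no binding.

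Cyp26a1 and Rarb varied together from mouse to mouse. Both were lowest in Con 2 among the Con mice and in Exe 4 among the Exe mice. Of the 36 pairs among the 9 genes, this was the only one past an adjusted p of 0.05 by rank, with Spearman rho 0.888 over 12 mice (permutation p = 0.0003, adjusted p = 0.0108 over 36 pairs) and Pearson r 0.72 on log2(FPKM + 1) (permutation p = 0.00873, adjusted p = 0.157). Without Con 2 and Exe 2, the mice farthest from the median of Cyp26a1, r was 0.776 (permutation p = 0.00897), and without any single mouse rho was 0.864 to 0.927. Within groups rho was 0.943 in Con (exact permutation p = 0.0167, n = 6) and 0.829 in Exe (exact permutation p = 0.0583, n = 6). On deviations from the group means rho was 0.811 (permutation p = 0.00547, adjusted p = 0.197), and without Con 1 and Exe 5, the mice with the highest acute-phase sums, it was 0.842 (permutation p = 0.00364, adjusted p = 0.131). The order of mice did not split by group. Among all genes tested, the rank orders most like that of Cyp26a1 were those of Arhgef26 (rho 0.93), Itch (0.923) and then Rarb. Of Arhgef26 and Itch, only Arhgef26 had a promoter window, with 0 matches.

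**Figure D3:**
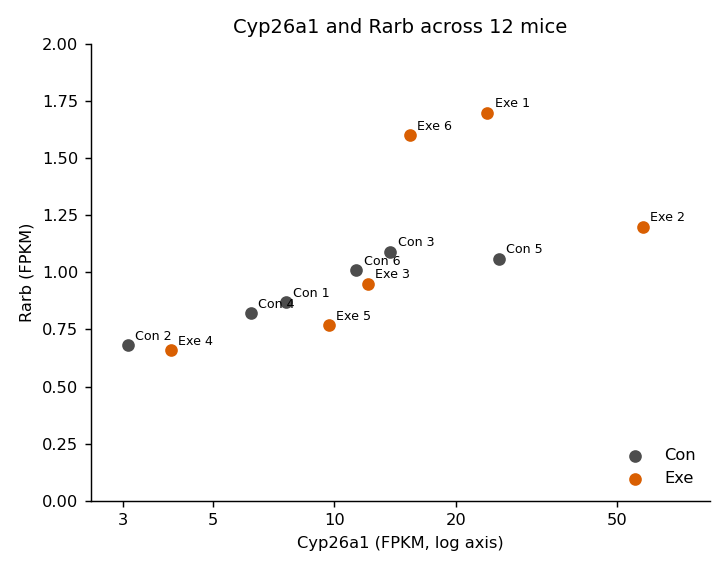
Rarb in FPKM on a linear axis from 0 against Cyp26a1 in FPKM on a log axis, with 1 labelled point per mouse (grey Con, orange Exe). The points climb from Con 2 and Exe 4 at the lower left to Exe 1, Exe 2 and Exe 6, which have the 3 highest Rarb values, with Spearman rho 0.888 over 12 mice.

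The other pairs were weaker. Over the 36 pairs, rho was above 0 in 22 and below 0 in 14, and 4 pairs passed an unadjusted p of 0.05. These were Cyp26a1 with Rarb, Rbp4 with Rdh16 (rho 0.671, permutation p = 0.0197, adjusted p = 0.354), Lrat with Rarb (rho 0.634, permutation p = 0.0299, adjusted p = 0.359) and Rbp4 with Dhrs3 (rho 0.587, permutation p = 0.0488, adjusted p = 0.439). Rbp4 and Rdh16 had the highest Pearson r of all pairs, 0.847 (permutation p = 0.00062, adjusted p = 0.0223). Without both Con 1 and Exe 5, r was 0.631 (permutation p = 0.0503, adjusted p = 0.441), and the pair was no longer called. Leaving out Con 1, Exe 2 or Exe 5 alone also removed the call, although r stayed near its full value. It was 0.805 without Con 1 (adjusted p = 0.201, permutation), 0.801 without Exe 2 (adjusted p = 0.0893) and 0.78 without Exe 5 (adjusted p = 0.13). On deviations from the group means r was 0.882 (permutation, adjusted p = 0.0781). Lrat and Rarb had r 0.25 without Exe 4 and Exe 6. The grid of rank correlations sets these values side by side.

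**Figure D4:**
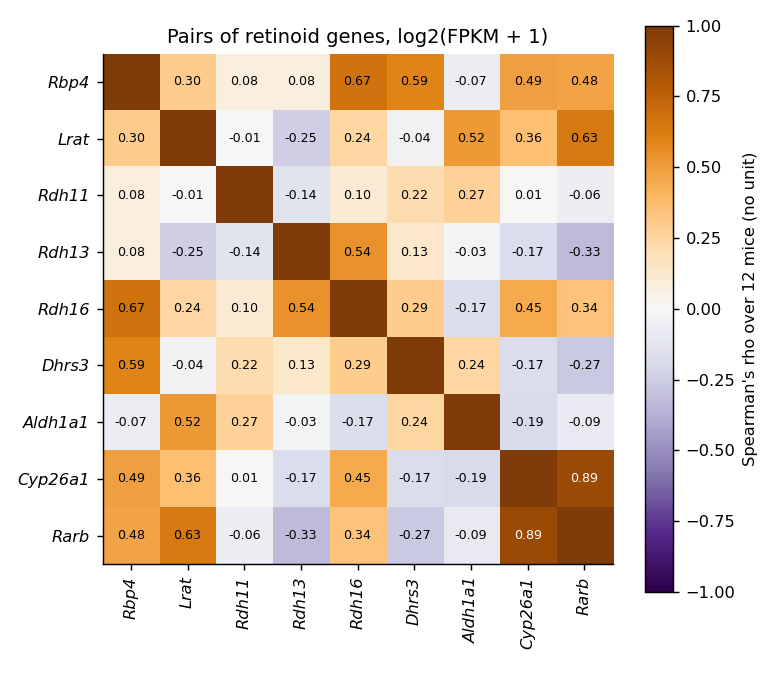
Spearman rho over 12 mice for each of the 36 pairs of the 9 genes, coloured purple below 0 and orange to brown above 0, with the value in each cell and each gene against itself on the diagonal. The darkest cell off the diagonal is Cyp26a1 with Rarb, at 0.888, and 22 of the 36 values lie above 0.

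Rbp4 and Rdh16 were both at the bottom of their group in the same mice, Con 1 and Exe 5. Those mice had the highest summed FPKM of 8 acute-phase genes, liver genes that inflammation switches on. The sum was 34600 in Con 1 and 33770 in Exe 5, against 4110 to 21500 in the other 10 mice. The groups also differed in this sum, with a median of 15870 FPKM in Con and 8120 in Exe. Over 12 mice, Rbp4 ran against the mean log2 level of the list with r -0.817 (permutation p = 0.001, adjusted p = 0.0382 over 45 pairs of a gene and a list) and rho -0.65 (permutation p = 0.0262, adjusted p = 0.295). Rdh16 did so with r -0.754 (permutation p = 0.0017, adjusted p = 0.0382) and rho -0.699 (permutation p = 0.0143, adjusted p = 0.295). Without Con 1 and Exe 5, r was -0.659 for Rbp4 (permutation p = 0.0395, adjusted p = 0.495) and -0.543 for Rdh16 (permutation p = 0.0879, adjusted p = 0.56). With Con 1, Con 2, Con 4, Con 5, Con 6, Exe 1, Exe 2 or Exe 5 left out in turn, r stayed between -0.766 and -0.835 for Rbp4 and between -0.689 and -0.778 for Rdh16, while its adjusted p was above 0.05 for both, at most 0.181 and 0.208 (permutation). On deviations from the group means r was -0.811 for Rbp4 (permutation, adjusted p = 0.104) and -0.757 for Rdh16 (adjusted p = 0.12), and rho was -0.797 and -0.734. Leaving out the pair of mice farthest in Rdh16, Exe 2 and Exe 5, gave r -0.715 (permutation p = 0.0111). Within groups rho was -0.771 in Con and -0.257 in Exe for Rbp4, and -0.829 and -0.543 for Rdh16, none past p of 0.05 by exact permutation tests. The part of the acute-phase level in the values of Rbp4 and Rdh16, and in their differences between groups, was not tested. With Con 1 and Exe 5 left out, the difference between groups was 0.19 for Rbp4 (unadjusted p = 0.0454, adjusted p = 0.683, limma) and 0.24 for Rdh11 (unadjusted p = 0.0757, limma).

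**Figure D5:**
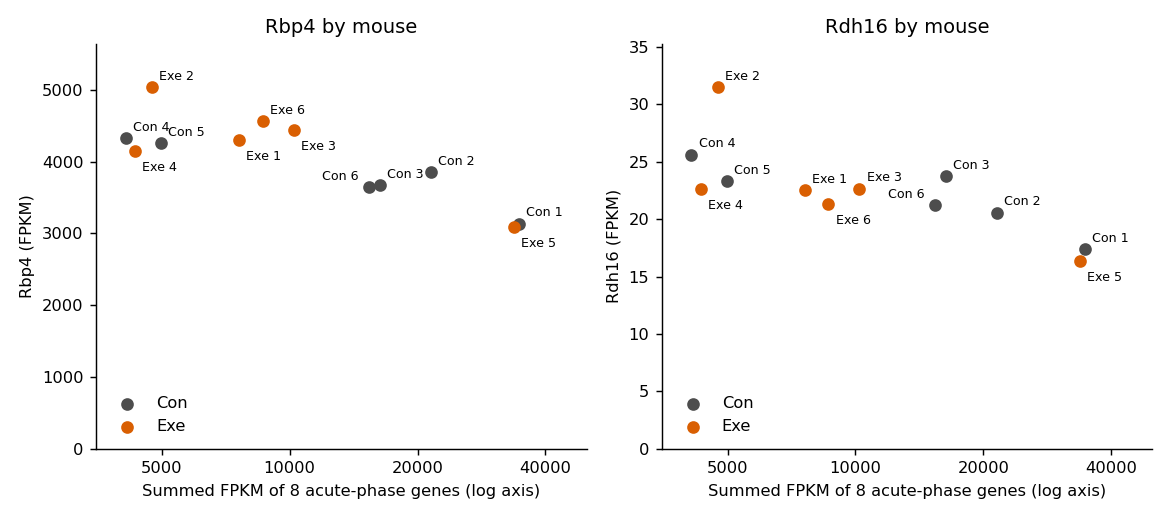
Rbp4 (left) and Rdh16 (right) in FPKM on linear axes from 0 against the summed FPKM of 8 acute-phase genes on a log axis, with 1 labelled point per mouse (grey Con, orange Exe). Con 1 and Exe 5, at 34600 and 33770, hold the lowest values of both genes in their groups.

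Among the 45 pairs of a gene with the stellate cell, hepatocyte, pericentral, periportal or acute-phase list, those 2 were the only ones past the adjustment, by r alone. Rbp4 had rho 0.727 with the pericentral zone markers (permutation p = 0.0099, adjusted p = 0.295) and r 0.759 (permutation, adjusted p = 0.0669). Rdh16 had r 0.704 with the same markers (permutation p = 0.00971, adjusted p = 0.109) and rho 0.476 (permutation p = 0.123). Con 1 (5322 FPKM) and Exe 5 (4825 FPKM) also had the lowest summed pericentral markers of their groups. The part of the pericentral markers in the values of Rbp4 and Rdh16 was not tested. Aldh1a1 had rho 0.671 with the stellate cell markers (permutation p = 0.0201, adjusted p = 0.295). Aldh1a1 had r 0.651 with that list, and 0.303 without Con 4 and Con 5. Cyp26a1 had rho -0.594 with the stellate cell markers (permutation p = 0.0472, adjusted p = 0.398).

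The rest of the retinoid route was read from 62 genes on 6 lists, 58 of them in the files and 41 past the filter. Of the 41, 20 were higher and 21 lower in Exe, with a median log2 difference of -0.004 beside 0.016 over all genes tested. At an adjusted p of 0.05 (limma) 0 were called, and at an unadjusted p of 0.05 there was 1 higher, Adh5, and 0 lower, beside backgrounds of 4.27% and 1.94%. Adh5, an alcohol dehydrogenase best known for clearing formaldehyde, ranged from 233.8 to 257.3 FPKM in Con and from 260.1 to 277.5 in Exe. The groups thus did not overlap, as in 26 of the 10241 genes tested (0.254%). The log2 difference of Adh5 was 0.14 (SE 0.045, unadjusted p = 0.00898, adjusted p = 0.793, limma), and the exact permutation p was 0.00216, the smallest that 6 mice against 6 allow. After quantile normalization the difference was 0.094 (unadjusted p = 0.0486, adjusted p = 0.823, limma).

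By list, 1 of 3 tested genes of retinoid binding and uptake was higher in Exe, 5 of 12 of retinyl ester and carotenoid handling, 8 of 13 of retinol oxidation and retinal reduction, 2 of 4 of retinal oxidation, 1 of 1 of retinoic acid clearance and 3 of 8 of the receptors and cofactors. The list medians lay between -0.07 and 0.053 on the log2 scale. The retinyl ester list was led by Hsd17b13, a lipid droplet protein with retinol dehydrogenase activity, at 285.2 ± 34.6 FPKM in Con and 298.8 ± 26.6 in Exe, and by Dgat2, a triglyceride acyltransferase, at 262.9 ± 35.3 and 261.7 ± 41.1. Adh1, the main alcohol dehydrogenase that oxidises retinol, was at 1316 ± 138 FPKM in Con and 1578 ± 324 in Exe (log2 difference 0.24, adjusted p = 0.83, limma). Aox3, an aldehyde oxidase, was at 218.6 ± 52.7 FPKM in Con and 194.1 ± 21.4 in Exe. Stra6l, a receptor that takes up Rbp4-bound retinol in liver, was at 44.76 ± 3.41 and 44.44 ± 6.42 FPKM.

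Cyp26a1 had the highest mean level of the Cyp26 enzymes that clear retinoic acid. Cyp26b1, the other one past the filter, was at 1.43 ± 1.11 FPKM in Con and 1.47 ± 0.89 in Exe (log2 difference 0.05, adjusted p = 0.987, limma), with its highest value in Con 5, the Con mouse with the highest Cyp26a1. Cyp2c39 was at 0.48 and 0.523 FPKM, under the filter. Of the receptors, Rxra, the partner of the retinoic acid receptors, was at 102.6 ± 3.7 FPKM in Con and 98.6 ± 7.9 in Exe (adjusted p = 0.931, limma), and Rxrb at 11.9 ± 0.8 and 11.7 ± 1.1. Rbp2, Crabp1, Stra6 and Rdh8 were on the lists but not among the genes with values, so that no level is given.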

How the data were processed

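RNA from the livers of 6 Con and 6 Exe mice was sequenced in paired-end reads on DNBseq, after the authors had screened for outliers by principal component analysis. Clean reads were mapped with HISAT to GRCm39, and the authors deposited the levels as FPKM with 2 decimals. The submitters' processing notes also name Bowtie2 and mm10. The counting tool and annotation release are not given in the sources used here, and strand is not stated. FPKM are not counts, so that the authors' DESeq was replaced by limma 3.58.1 (R 4.3.3) with a trend on log2(FPKM + 1), for the 10241 genes with at least 1 FPKM in at least 6 mice, with Benjamini-Hochberg adjustment over all of them. Single genes were also tested by exact two-sided permutation over 924 splits, and correlations over 12 mice by 100000 permutations, in scipy 1.17.1 and numpy 2.4.6 (Python 3.11.15, pandas 2.3.3, matplotlib 3.10.9). The scripts were tested on simulated data.

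The 9 genes and all lists were chosen with earlier results of these data known, and the repeat was searched after the promoters had been read. Named were every one of the 9 genes, other retinoid genes at an unadjusted p under 0.05 or among the 2 highest of their list, near paralogs, and the 3 genes most like Cyp26a1, Lrat and Rbp4 by rank. Alternatives were quantile normalization, no filter, at least 1 FPKM in all 12 mice, a pseudocount of 0.1, robust moderation, a replicate block, group means removed, each mouse left out and, added after seeing the data, Con 1 and Exe 5 left out. The spread between mice is the error given. No 2 mice had identical values. Promoters were RefSeq windows on GRCm38.p6, matched by symbol.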

Additional observations from a re-analysis of the deposited data

Results flagged for a closer look

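In 18 sets of 6 mice (9 genes in 2 groups), 2 held a mouse apart from the rest by Dixon's ratio at its 95% critical value for 6 values, where chance gives about 1 set in 20. The ratio was taken on FPKM, not on the log2(FPKM + 1) of the other tests. Whether the calls hold on the log2 scale was not tested. Cyp26a1 in Exe 2 was at 57.86 FPKM, 2.42 times the next Exe mouse at 23.88 (ratio 0.63). Dhrs3 in Con 4 was at 83.26 FPKM, 1.35 times the next Con mouse at 61.79 (ratio 0.806). The relative depth of these libraries was 0.981 and 1.02, by an estimate that could not show a large difference.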

How the results depend on the processing

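Of 313 recomputed values, 286 changed neither sign nor call, or for counts stayed within 1.5 times. None of the 9 genes passed an adjusted p of 0.05 under any alternative run (adjusted p 0.534 to 0.999, limma). The count of genes at that threshold was 0, and 1 with no filter (D630003M21Rik, log2 difference -0.22, adjusted p = 0.0476, named after its value was seen). At an unadjusted p of 0.05 there were 636 genes, and 418 (without Exe 2) to 910 (without Exe 5) with 1 mouse left out. The number among the 9 was 1, and 0 without Con 2, Con 5 or Exe 3 up to 2 without Exe 4 (Rdh11 and Rdh13). Without Exe 5 it was Rbp4 in place of Rdh11. The number among the other retinoid genes was 1, and 1 to 4 with 1 mouse left out. It was 4 without Exe 5, and 4 without Con 1 and Exe 5 (Adh1, Adh5, Aox1 and Retsat). Log2 differences that changed sign were those of Lrat (-0.15 to 0.035 with 1 mouse left out), Rdh16 (-0.055 to 0.126), Dhrs3 (-0.001 to 0.155) and Aldh1a1 (-0.03 to 0.06, and -0.038 after quantile normalization). For pairs by rank, 1 was called, and 0 on deviations from group means (Cyp26a1 with Rarb, rho 0.811) and 0 without Con 1 and Exe 5 (rho 0.842). For pairs with lists 0 were called, and 1 after quantile normalization (Rbp4 with the acute-phase genes, rho -0.897, permutation p = 0.00013, adjusted p = 0.00585). Tests on fewer mice had less power, but some counts rose with mice left out, and the cause of these changes was not tested. Rarb had no value under the filter of 1 FPKM in all 12 mice.

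The values showed no pairing by replicate number. Deviations of same-numbered mice correlated at -0.478 to 0.165, and 1 of 6 Con mice correlated best with its own number. The labels do not say whether same-numbered mice were paired in housing or handling. With the replicate block 567 genes passed the unadjusted p, with 1 of the 9 (Rdh11, adjusted p = 0.863, limma) and 3 other retinoid genes (Rdh9, Rdh16f2 and Adh5). Read depth is unknown, so that the counting error of Rarb, Lrat and Rdh13, at 1 to 3 FPKM, could not be given here.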

Other observations

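Con 4 had the highest level of its group in 6 of the 9 genes (Rbp4, Rdh11, Rdh13, Rdh16, Dhrs3 and Aldh1a1) and the lowest in 0, and its acute-phase sum of 4110 FPKM was the lowest of all 12 mice. Exe 2 had the highest Cyp26a1, Rbp4 and Rdh16 of its group and the lowest level of none. Exe 4 had the lowest Cyp26a1, Lrat and Rarb of its group and the highest Rdh13. Exe 5 had the lowest Rbp4 and Rdh16 of its group together with the highest Rdh11 and Aldh1a1. Its summed pancreatic acinar markers (21.47 FPKM, against 0.6 to 2.93 in Con) and red blood cell markers (1290 FPKM, against 235.1 to 903 in Con) were the highest of the Exe mice. The part of these marker levels in its retinoid values was not tested.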
